A study of Homo sapiens with 2 samples.

Results

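Desmosomes are the spot-like junctions that hold neighbouring epithelial cells together, and 10 genes that build them were examined in 2 prostate cancer (PCa) cell lines. The genes were taken by symbol from a list of names: the desmogleins DSG2 and DSG3, the desmocollins DSC2 and DSC3, plakoglobin (JUP), the plakophilins PKP1, PKP2 and PKP3, desmoplakin (DSP) and the tetraspan membrane protein PERP. All 10 were found among the 21382 gene symbols of the deposited table, each at a single locus. Both lines were untreated and each was represented by 1 RNA-Seq library from total RNA. MDA PCa 2b is an established line from a bone metastasis of PCa and was grown in Kaighn's modified Ham's medium with fetal bovine serum, cholera toxin, mouse epidermal growth factor, phosphoethanolamine, hydrocortisone, sodium selenite, insulin and antibiotics. RC77 T/E is a line of prostate tumor epithelial cells immortalized with papillomavirus oncogenes and was grown in Keratinocyte-SFM medium, to which epidermal growth factor and bovine pituitary extract were added. The cell line and its medium cannot be told apart in this design. With 1 library per line no value has a replicate error, no test was possible, and a difference below compares these libraries only.

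In a desmosome, the extracellular parts of desmogleins and desmocollins bind across the gap between cells. Their tails are held by plakoglobin and the plakophilins, and desmoplakin links that plaque to the keratin filaments. DSG2 and DSC2 are found in most epithelia, whereas DSG3 and DSC3 are known from the basal layers of stratified epithelia.

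Levels are given in TPM, which the authors scaled to transcript length and to the sum of each library. Deposited numbers that reach 1 TPM and carry 3 or more decimals had lost their decimal mark, which was put back from the deposited mean and standard error of both libraries. The mark was fixed in this way for 5 of the 10 genes (DSG2, DSC2, DSC3, JUP and PKP1). It could lie at either of 2 positions for PKP2, PKP3, DSP and PERP, and at any of 3 for DSG3, so their levels are given as alternatives that differ by a factor of 10 or 100. The plain ratio between the lines is the same at every position. A gene was called higher in a line when TPM + 1 differed by at least 2-fold (a log2 ratio of 1), a measure that understates the change of low genes and that was read at the lowest open position.

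The sequences just upstream of the starts of the 4 desmosomal cadherin genes are shown because these genes bear on the choice between paralogs described below and 2 of them, DSG3 and DSC3, held none of the motifs searched. All 4 lie on chromosome 18 of GRCh38. The sequences are from RefSeq (GRCh38.p14), run 5′ to 3′ on the gene's own strand, and end before the outermost transcript start annotated in the promoter window. Capitals mark a match to GGGCGG (the GC box read by SP and KLF factors) or to CACCTG (the E-box read by ZEB and SNAI repressors), on either strand, so that CAGGTG is the E-box read from the other strand. DSG2 is shown from chr18:31497927-31498042 (plus strand), DSG3 from chr18:31447491-31447740 (plus), DSC2 from chr18:31102523-31102671 (minus) and DSC3 from chr18:31042816-31042992 (minus).
DSG2: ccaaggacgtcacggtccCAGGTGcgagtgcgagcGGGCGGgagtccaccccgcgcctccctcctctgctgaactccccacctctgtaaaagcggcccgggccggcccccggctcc
DSG3: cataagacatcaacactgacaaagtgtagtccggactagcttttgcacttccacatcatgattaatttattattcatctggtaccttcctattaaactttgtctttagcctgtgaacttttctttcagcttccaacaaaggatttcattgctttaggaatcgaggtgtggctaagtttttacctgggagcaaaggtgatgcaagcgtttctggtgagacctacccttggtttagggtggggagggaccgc
DSC2: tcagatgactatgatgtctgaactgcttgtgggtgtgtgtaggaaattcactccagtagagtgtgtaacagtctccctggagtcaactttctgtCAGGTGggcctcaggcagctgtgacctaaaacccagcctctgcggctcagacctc
DSC3: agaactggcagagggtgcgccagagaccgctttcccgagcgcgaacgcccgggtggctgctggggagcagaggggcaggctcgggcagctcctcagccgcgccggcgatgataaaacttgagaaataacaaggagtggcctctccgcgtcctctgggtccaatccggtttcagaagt

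The DSG2 stretch holds 1 E-box and 1 GC box and the DSC2 stretch holds 1 E-box. The DSG3 and DSC3 stretches hold neither, and DSG3 differs from the other three in base composition. Over the 250 bases before the RefSeq start, G and C made up 42.8% of the DSG3 sequence, 59.6% of DSC2, 60.4% of DSC3 and 75.2% of DSG2, beside a median of 58.0% over 35116 promoters. The DSG3 window had 4 CpG dinucleotides, against 12 in DSC2, 18 in DSC3 and 26 in DSG2, beside a median of 11. Of the other members with an entry, JUP had 63.6% of G and C in this window, PKP1 67.6%, PERP 77.2% and DSP 78.0%. Over these windows, DSG3 was the one gene of the 8 below the median of all promoters. The DSC2 window runs past the outermost annotated transcript start. In the stretch shown for DSC2, which ends before it, G and C made up 51.7%, also under that median.

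Of the 10 desmosome genes, 8 were higher in RC77 T/E by 2-fold or more, beside 19.4% of the 11624 expressed genes, those whose mean over both lines reached 1 TPM. The 8 include DSG3, whose value in MDA PCa 2b is listed at 0 and may be a failed estimate, and without it 7 of 9 genes were. None was higher in MDA PCa 2b by 2-fold or more, beside 20.0% of them. PKP1 and PKP3 lay within 2-fold, as did 60.7% of the expressed genes. At 4-fold, 6 of the 10 were higher in RC77 T/E (DSG2, DSG3, DSC2, DSC3, DSP and PERP), beside 9.69% of the expressed genes, and none was in MDA PCa 2b, beside 6.19%. Without DSG3, the 4-fold count was 5 of 9. The median log2 ratio of the 10 genes was 2.55 (2.21 without DSG3) and that of all 11624 genes was -0.15, so a log2 ratio of 0 lay slightly above the middle of the expressed genes. All 10 genes passed the filter on the mean, but DSG3, DSC2 and DSC3 passed it through RC77 T/E alone. At their levels in MDA PCa 2b, a 2-fold call toward RC77 T/E follows from passing the filter. In a library of bulk cells, fewer cells with a transcript and less of it per cell cannot be told apart. All 10 genes stood at 1 TPM or more in RC77 T/E, beside 52.8% of all genes, and 7 did in MDA PCa 2b, beside 49.6%.

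**Figure D1:**
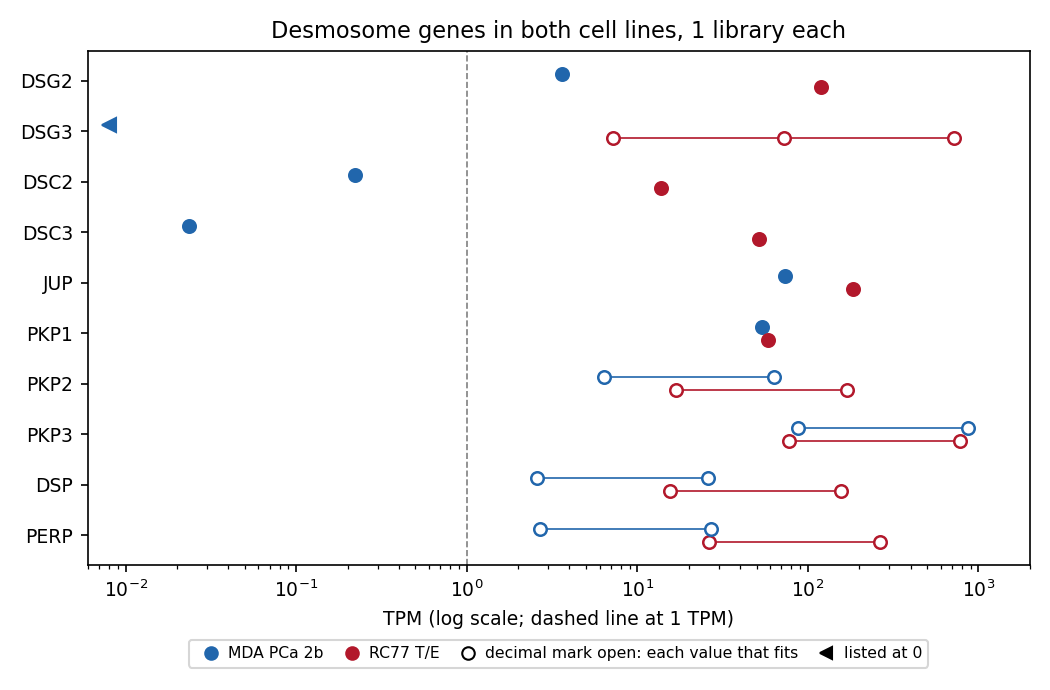
Level of each of the 10 desmosome genes in both libraries, in TPM on a log axis, with 1 point per line (MDA PCa 2b in blue, RC77 T/E in red). Open points joined by a line are the alternatives where the decimal mark is open, the triangle marks DSG3 listed at 0, and the dashed line is 1 TPM. DSC3 lies at 51.6 TPM in RC77 T/E against 0.0234 TPM in MDA PCa 2b, while the 2 points of PKP1 nearly meet at 53.6 and 58.4 TPM.

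Desmogleins are the adhesive cadherins with the longer cytoplasmic tail. DSG2 (ENSG00000046604, chromosome 18 of GRCh38, 31498177 to 31549008, plus strand, 15 exons in its longest coding transcript) encodes the desmoglein of simple epithelia and stood at 119.8 TPM in RC77 T/E against 3.62 TPM in MDA PCa 2b. This was a 33.1-fold difference, with a log2 ratio of 4.71. A larger log2 ratio was found for 1.97% of the expressed genes.
DSG3 (ENSG00000134757, 31447741 to 31478702, plus strand, 16 exons) encodes the desmoglein that serves as the main autoantigen of pemphigus vulgaris. It is listed at 0 in MDA PCa 2b and was at 7.21, 72.1 or 721 TPM in RC77 T/E. No fold is given against a value listed at 0, since a gene used by every cell, EEF1A1, is listed at 0 in MDA PCa 2b as well, against 2393 TPM in RC77 T/E. The log2 ratio of DSG3 was 3.04 at the lowest mark and 9.50 at the highest. These values all rest on the listed 0, so the direction of DSG3 between the lines is not settled by them.

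Desmocollins are the partner cadherins of the desmogleins. DSC2 (ENSG00000134755, chromosome 18, 31058840 to 31102522, minus strand, 16 exons) encodes the widely expressed desmocollin. It was at 13.8 TPM in RC77 T/E against 0.220 TPM in MDA PCa 2b, a 62.7-fold difference and a log2 ratio of 3.60. The fold of DSC2 rests on a level under 1 TPM at an unknown depth and has no known precision.
DSC3 (ENSG00000134762, 30989365 to 31042815, minus strand, 16 exons) encodes the desmocollin of basal keratinocytes. It was at 51.6 TPM in RC77 T/E against 0.0234 TPM in MDA PCa 2b. Its log2 ratio of 5.68 was the largest of the 10 genes with marks at their lowest position, and 1.18% of the expressed genes had a larger one. The plain ratio of DSC3 was 2204, but its denominator is so low, at a depth that is unknown, that the ratio has no usable precision. In MDA PCa 2b both desmocollins lay under 1 TPM and in RC77 T/E both lay above it.

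**Figure D2:**
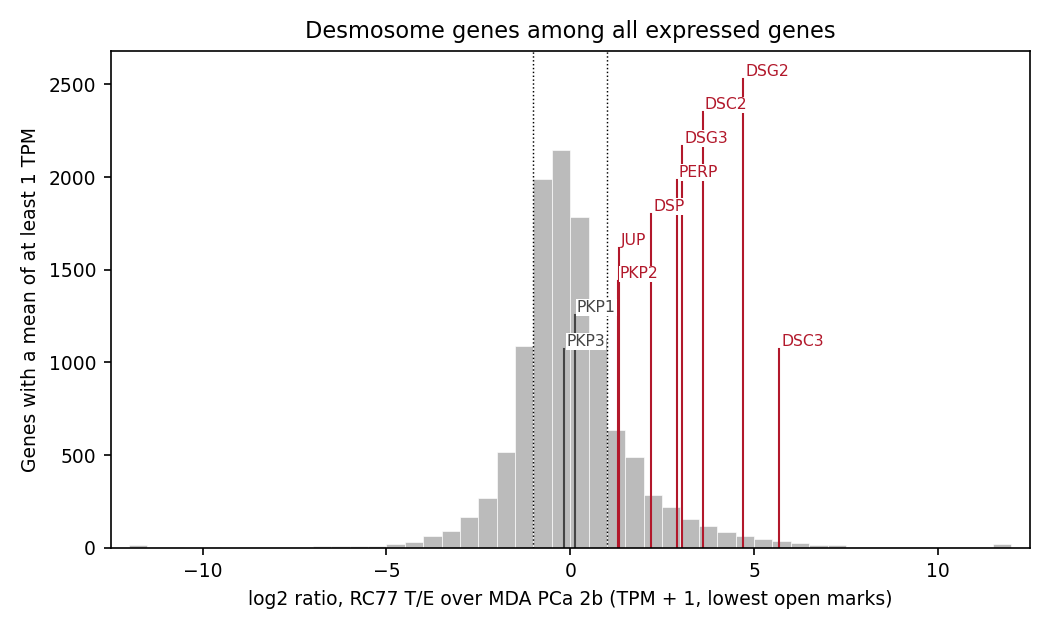
Log2 ratio, RC77 T/E over MDA PCa 2b (TPM + 1, lowest open marks) on the x axis against the number of expressed genes on the y axis, in grey, with the end bars pooling all larger ratios. Vertical lines place the 10 desmosome genes (their heights only separate the names) and dotted lines mark 2-fold. PKP1 and PKP3 lie inside the dotted lines and the other 8 to the right of them, from PKP2 at 1.29 to DSC3 at 5.68.

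The listed shares of the desmocollin genes differed between the libraries, but whether the choice among the cadherin genes differed was not tested. Of the desmocollin TPM, which summed to 65.4 in RC77 T/E against 0.252 in MDA PCa 2b, DSC2 made up 21.1% in RC77 T/E against 87.4% in MDA PCa 2b. DSC3 made up 78.9% in RC77 T/E against 9.29% in MDA PCa 2b, and DSC1, the desmocollin of the upper epidermis, the remaining 0.0102% and 3.27%. In RC77 T/E, DSC3 was 3.73 times DSC2. The marks of these genes are fixed, so the shares do not depend on them. The shares in MDA PCa 2b rest on levels under 1 TPM at an unknown depth and have no known precision.
Among the desmogleins, DSG2 was the sole gene above 0 in MDA PCa 2b. In RC77 T/E, DSG3 made up 5.68%, 37.6% or 85.8% of the desmoglein TPM and DSG2 the complementary 94.3%, 62.4% or 14.2%, as the mark of DSG3 moves from its lowest to its highest position. DSG2 leads at the lower 2 positions and DSG3 at the highest, so the leading desmoglein of RC77 T/E is not determined. DSG1, of the upper epidermis, was at 0.00521 TPM in RC77 T/E, and DSG4, of the hair follicle, is listed at 0 in both.

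**Figure D3:**
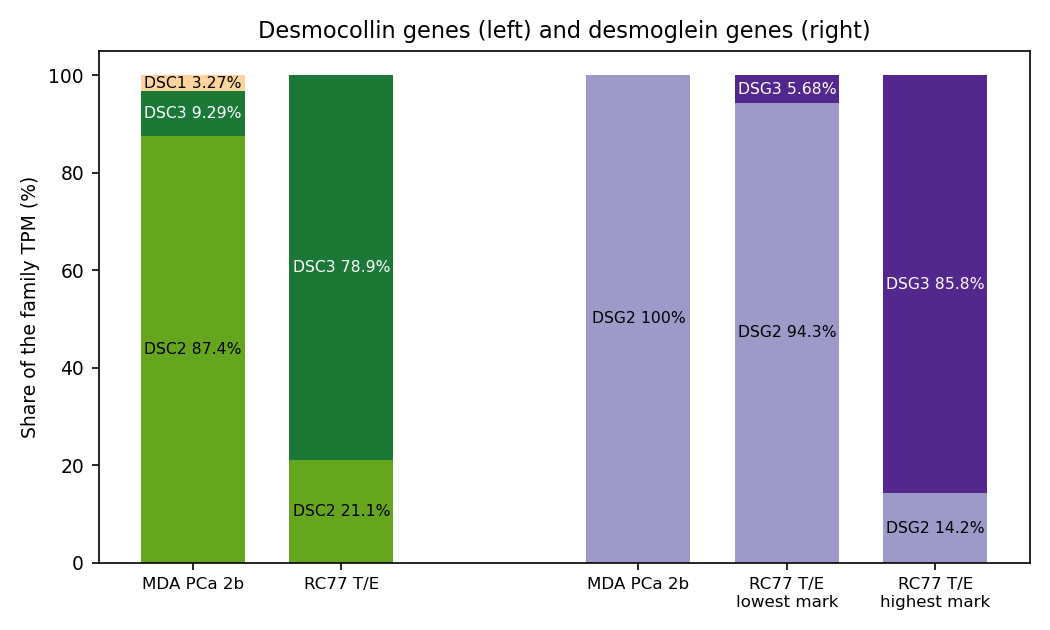
Stacked bars of the share of the family TPM, in percent, taken by each desmocollin gene (left) and each desmoglein gene (right), with 1 bar per library and, for the desmogleins of RC77 T/E, 1 bar each for the lowest and the highest decimal mark of DSG3. DSC3 takes 78.9% of the desmocollin TPM in RC77 T/E against 9.29% in MDA PCa 2b, while DSG3 takes 5.68% or 85.8% of the desmoglein TPM in RC77 T/E.

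All 7 desmosomal cadherin genes stand side by side on chromosome 18, in the order DSC3, DSC2, DSC1, DSG1, DSG4, DSG3 and DSG2, over 559.6 kb. In RC77 T/E the genes at both ends of the array were above 1 TPM and those between them were near 0. DSC1 was at 0.00668 TPM in RC77 T/E against 0.00823 TPM in MDA PCa 2b, DSG1 at most at 0.00521 TPM and DSG4 at 0 in both. Beyond DSG2, the transthyretin gene TTR is listed at 0 in both libraries. The next gene considered, B4GALT6, which encodes a galactosyltransferase, was at 4.02 TPM in RC77 T/E against 0.0741 TPM in MDA PCa 2b. That 54.3-fold difference rests on a level under 1 TPM at an unknown depth and has no known precision. The antisense genes DSCAS, DSG1-AS1 and DSG2-AS1 of the array were not analysed here.

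**Figure D4:**
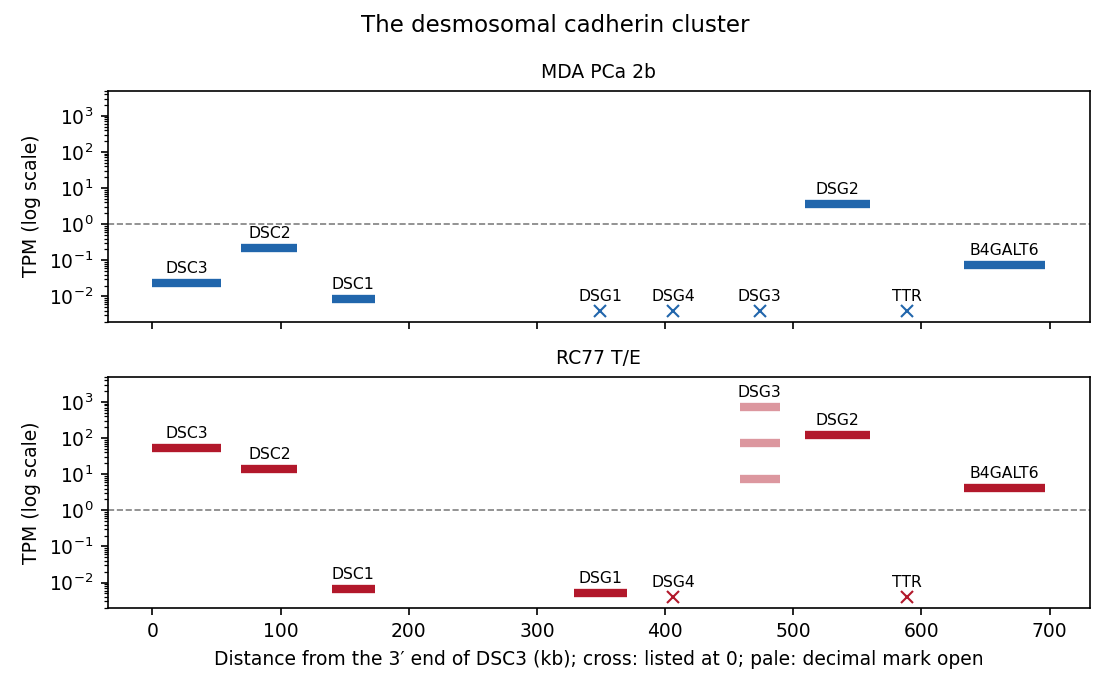
Levels along the cadherin array in TPM (log axis) against the distance from the 3′ end of DSC3 in kb, with MDA PCa 2b above and RC77 T/E below. Each segment spans a gene, a cross marks a gene listed at 0, the dashed line is 1 TPM, and the pale segments of DSG3 are its open positions. In RC77 T/E the outer genes DSC3, DSC2, DSG3 and DSG2 lie above 1 TPM and the inner genes DSC1, DSG1 and DSG4 below 0.01 TPM.

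Plakoglobin is the armadillo protein that joins cadherin tails to desmoplakin and also takes part in adherens junctions. Its gene JUP (ENSG00000173801, chromosome 17, 41754604 to 41786931, minus strand, 15 exons) was at 185 TPM in RC77 T/E against 73.4 TPM in MDA PCa 2b. It was 2.52-fold higher in RC77 T/E (log2 ratio 1.32), and 15.5% of the expressed genes had a larger ratio.
JUP differed by less than DSG2, DSC2 and DSC3, and the proportion of plaque to cadherin transcripts was another in each library. JUP was at 2.83 times the summed desmocollin TPM in RC77 T/E but at 291 times in MDA PCa 2b, where the desmocollin sum is under 1 TPM and of unknown precision. Against the summed desmogleins it was at 20.3 times in MDA PCa 2b and between 0.220 and 1.46 times in RC77 T/E over the open marks of DSG3. PKP1, another plaque gene with a fixed mark, was at 14.8 times DSG2 in MDA PCa 2b, and DSG2 was at 2.05 times PKP1 in RC77 T/E. These are ratios of transcript levels per length within a library and do not give protein amounts.

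Plakophilins are armadillo proteins that cluster desmoplakin at the plaque, and PKP1 and PKP3 had the smallest differences of the 10 genes. PKP1 (ENSG00000081277, chromosome 1, 201283452 to 201332993, plus strand, 15 exons), the plakophilin of stratified epithelia, was at 58.4 TPM in RC77 T/E against 53.6 TPM in MDA PCa 2b. Its ratio was 1.09 and its log2 ratio 0.12, or 0.27 relative to the median gene.
PKP2 (ENSG00000057294, chromosome 12, 32790745 to 32896777, minus strand, 14 exons), the plakophilin of simple epithelia and of the heart, was at 16.9 or 169 TPM in RC77 T/E against 6.34 or 63.4 TPM in MDA PCa 2b. It was 2.67-fold higher in RC77 T/E, with a log2 ratio of 1.29 at the lower mark and 1.40 at the higher.
PKP3 (ENSG00000184363, chromosome 11, 392614 to 404908, plus strand, 13 exons), which occurs in nearly all desmosome-bearing epithelia, was at 77.5 or 775 TPM in RC77 T/E against 87.0 or 869.6 TPM in MDA PCa 2b. It was 1.12-fold higher in MDA PCa 2b (log2 ratio -0.16), and relative to the median gene its log2 ratio was -0.01.
PKP3 was the leading plakophilin of MDA PCa 2b at every combination of open marks, with 42.6% to 93.6% of the plakophilin TPM, while PKP1 had 5.43% to 36.5% and PKP2 0.682% to 31.1%. In RC77 T/E the leader was PKP3 or PKP2, with shares of 25.4% to 91.1% and 1.99% to 55.5%, and PKP1 had 5.82% to 38.2%. PKP1 led in neither library at any mark.

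Desmoplakin is the plakin that anchors the plaque to keratin filaments. DSP (ENSG00000096696, chromosome 6, 7541617 to 7586714, plus strand, 24 exons) was at 15.5 or 155 TPM in RC77 T/E against 2.58 or 25.8 TPM in MDA PCa 2b. It was 6.02-fold higher in RC77 T/E, with a log2 ratio of 2.21 at the lower mark and 2.54 at the higher. DSP thus stood between the plaque armadillo genes and DSG2, DSC2 and DSC3 in the size of its difference.
PERP encodes a tetraspan protein of desmosomes and is a known target of p53 and p63. PERP (ENSG00000112378, chromosome 6, 138088505 to 138107419, minus strand, 3 exons) was at 26.5 or 265 TPM in RC77 T/E against 2.69 or 26.9 TPM in MDA PCa 2b. It was 9.85-fold higher in RC77 T/E, with a log2 ratio of 2.90 at the lower mark and 3.25 at the higher.

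With open marks at their lowest position, the 4 cadherins had log2 ratios from 3.04 (DSG3, against the listed 0) to 5.68, DSP and PERP 2.21 and 2.90, JUP and PKP2 1.32 and 1.29, and PKP1 and PKP3 0.12 and -0.16. PERP at its higher mark, at 3.25, would stand above DSG3 at its lowest. The levels in RC77 T/E did not follow that order, since JUP and DSG2, with fixed marks of 185 and 119.8 TPM, stood above PKP1, DSC3 and DSC2 at 58.4, 51.6 and 13.8 TPM. In MDA PCa 2b the order of the fixed genes was JUP, PKP1, DSG2, DSC2 and DSC3. Whether neighbours in these orders differ beyond the spread between cultures cannot be said from 1 library each.

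The promoters of 8 of the 10 genes matched an entry of the RefSeq table, and PKP2 and PKP3 did not. Within the 250 bases before the start, GGGCGG on either strand occurred in 6 of the 8 (DSG2, DSC2, JUP, PKP1, DSP and PERP), with 18 matches in all, some of them overlapping in DSP and PERP, beside 42.6% of all 35116 promoters. CACCTG occurred in 3 of the 8 (DSG2, DSC2 and DSP), beside 17.5% of all promoters. These counts take the whole window, which in some genes runs past the outermost annotated transcript start. Every GGGCGG match of DSC2, JUP and PKP1 lies past that start, as does an E-box of DSG2 and of DSP. Upstream of that start, a GGGCGG match remains in DSG2, DSP and PERP, and an E-box in DSG2, DSC2 and DSP. TGANTCA, the AP-1 site, occurred in PERP alone, beside 6.57% of all promoters. AACNGGTT, the site of Grainyhead-like factors, TATAAA, and the paired core of the p53 family matched in none of the 8, beside 1.49%, 10.7% and 0.296% of all promoters. Of the genes within 2-fold, PKP1 has an entry, with 1 GC box, and PKP3 has none. A match is a description of the letters and not a bound site.

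Further genes of the desmosome and cornified plakins were counted from a list of 7. The lists up to the keratins stand beside 19.4% of expressed genes higher in RC77 T/E, 20.0% in MDA PCa 2b and 60.7% within 2-fold. Those shares cover expressed genes only, whereas the further desmosome and adherens junction lists also hold genes below that filter. Of the 7 further genes, 2 were higher in RC77 T/E by 2-fold or more, none in MDA PCa 2b and 5 within 2-fold. The 5 include DSC1, DSG1 and DSG4, which were near 0 in both, and only 4 of the 7 were expressed genes. Periplakin (PPL), a plakin of keratinocyte junctions, was at 35.2 or 352 TPM in RC77 T/E against 3.78 or 37.8 TPM in MDA PCa 2b, a 9.32-fold difference. CDSN, which encodes corneodesmosin, reached 2.31 TPM in RC77 T/E, from 0.0244 TPM in MDA PCa 2b. The following relatives leaned the other way within 2-fold: PKP4 was 1.69 times and EVPL, encoding envoplakin, 1.43 times as high in MDA PCa 2b.
Adherens junctions are the actin-bound junctions that also use plakoglobin. Of 7 genes analysed, 2 were higher in RC77 T/E by 2-fold or more and 5 within 2-fold, with a median log2 ratio of 0.40. Of these 7, 6 were expressed genes, and CDH2, which was not, lay within 2-fold. P-cadherin (CDH3), a cadherin of basal cells, was 18.3-fold higher in RC77 T/E, and vinculin (VCL) 2.38-fold, at the edge of the threshold with a log2 ratio of 1.00. E-cadherin (CDH1) was 1.21 times and beta-catenin (CTNNB1) 1.24 times as high in RC77 T/E. CTNND1 was at 132 TPM in RC77 T/E against 147 TPM in MDA PCa 2b.
Hemidesmosomes tie basal cells to the basement membrane. Of 8 genes, 7 were higher in RC77 T/E by 2-fold or more, none in MDA PCa 2b and 1 (CD151) within 2-fold, with a median log2 ratio of 4.96. In RC77 T/E the integrin gene ITGB4 was at 463 TPM and the collagen gene COL17A1 at 524 TPM, against 4.51 and 0.0424 TPM in MDA PCa 2b. PLEC, encoding the plakin plectin, was 8.04-fold higher in RC77 T/E and DST, encoding another plakin, 78.2-fold. LAMB3, encoding a laminin chain of the basement membrane, stood at 1702 TPM in RC77 T/E and 0.195 TPM in the other line.

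Keratins form the filaments that desmoplakin binds. Of 9 keratin genes, 6 were higher in RC77 T/E by 2-fold or more, none in MDA PCa 2b and 3 within 2-fold, with a median log2 ratio of 6.32. The basal keratins KRT5 and KRT14 were at 4027 and 3255 TPM in RC77 T/E, against 0.00435 and 37.4 TPM in MDA PCa 2b. The 3 within 2-fold were KRT8, KRT18 and KRT19, which are keratins of simple epithelia. KRT7, another keratin of simple epithelia, was among the 6, at 3.45 TPM in RC77 T/E against 0.144 TPM in MDA PCa 2b. KRT6A, also among the 6, is listed at 0 in MDA PCa 2b against 1454 TPM in RC77 T/E. Its call rests on that listed 0, as for DSG3, and the count and the median include it. KRT18 was at 325 TPM in RC77 T/E against 320.5 TPM in MDA PCa 2b.

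**Figure D5:**
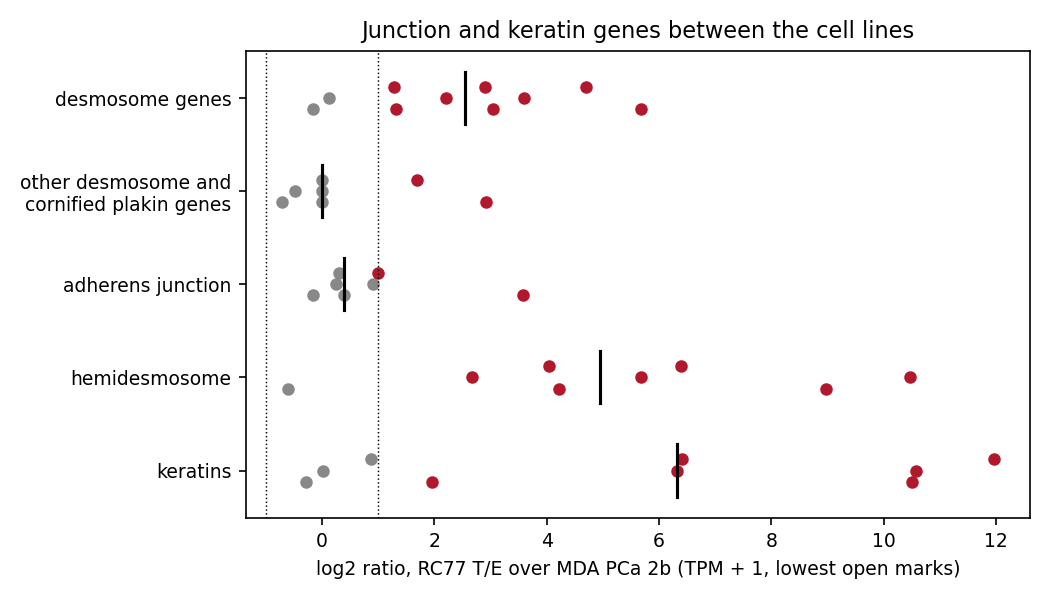
Log2 ratio, RC77 T/E over MDA PCa 2b (TPM + 1, lowest open marks) on the x axis for each gene of the 10 desmosome genes, the further desmosome and cornified plakin genes, the adherens junction, the hemidesmosome and the keratins, with 1 point per gene and a black bar at the median of each list. Dotted lines mark 2-fold and red points lie past it toward RC77 T/E. The medians are 2.55 for the 10 desmosome genes, 0.40 for the adherens junction, 4.96 for the hemidesmosome and 6.32 for the keratins. For the 7 further desmosome and cornified plakin genes the median is 0.0, the value of DSG4, listed at 0 in both libraries. Of these 7, 4 had a mean of at least 1 TPM, with log2 ratios of 2.92 (PPL), 1.69 (CDSN), -0.48 (EVPL) and -0.72 (PKP4).

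Of 13 transcription factors known to act on desmosome or other epithelial junction genes, 3 were higher in RC77 T/E by 2-fold or more. In MDA PCa 2b 5 were higher, and 5 lay within 2-fold. The shares of the expressed genes were 19.4%, 20.0% and 60.7%, but only 10 of the 13 factors were expressed genes. ZEB1, ZEB2 and SNAI1 were not, and all 3 are among the 5 within 2-fold. The counts of the 13 and those shares are therefore not on the same basis. TP63, encoding the basal-cell factor p63, is listed at 0 in MDA PCa 2b and was at 5.17 or 51.7 TPM in RC77 T/E. Its call as higher in RC77 T/E rests on that listed 0. SNAI2, encoding the zinc-finger factor Slug, was at 53.7 TPM in RC77 T/E against 0.102 TPM in MDA PCa 2b. Grainyhead-like genes were split, with GRHL3 3.52 times as high in RC77 T/E, and GRHL1 2.37 times and GRHL2 5.33 times as high in MDA PCa 2b. ELF3 was 21.7 times, OVOL1 3.68 times and TWIST1 3.47 times as high in MDA PCa 2b, and ZEB1 and ZEB2 stayed under 1 TPM in both.
Of 10 genes for the assembly and shedding of desmosomes, 2 were higher in RC77 T/E by 2-fold or more, 3 in MDA PCa 2b and 5 within 2-fold, which is near those shares. The sheddase gene ADAM17 was 3.22-fold higher in RC77 T/E, and CAV1, encoding caveolin, was at 424 TPM there and 0.0666 TPM in MDA PCa 2b. FURIN, whose protease matures desmosomal cadherins, was 2.62 times, the kinase gene PRKCA 2.82 times and FLOT1, encoding a flotillin, 6.24 times as high in MDA PCa 2b.

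The labels call both samples prostate cancer cell lines, and their markers of prostate cell types differed. All 3 luminal markers considered, KLK3, KLK2 and FOLH1, were called higher in MDA PCa 2b by 2-fold or more, with FOLH1 at 186 TPM there. The mark of KLK2 is open, from 5.68 to 568 TPM in MDA PCa 2b. All 3 are listed at 0 in RC77 T/E, so, as for DSG3, their direction is not settled by these values. Basal markers KRT5, KRT14 and TP63 had the values given above. The summed level of 6 fibroblast markers was 9.22 TPM in RC77 T/E against 2.77 TPM in MDA PCa 2b, with 1 of them at 1 TPM or more in RC77 T/E (COL1A1 at 8.24 TPM) and 0 in MDA PCa 2b, and DCN and LUM at most at 0.565 TPM. The 4 leukocyte markers summed to 42.9 TPM in RC77 T/E, 37.9 TPM of it from CD68 and 4.92 TPM from CD14, against 0.748 TPM in MDA PCa 2b, where CD68 was at 0.663 TPM and CD14 at 0.0730 TPM. The other markers of that list, the pan-leukocyte gene PTPRC and the T cell gene CD3E, were at most 0.0126 TPM in either line. The 3 endothelial markers summed to at most 0.207 TPM. Of 20 genes used by every cell, 13 lay within 2-fold and 1 (EEF1A1) is listed at 0. The part of the luminal, fibroblast and leukocyte markers in the desmosome results was not tested.

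The table gives 1 value per locus, so splice forms of the desmosome genes were not resolved. On GENCODE release 29, JUP, PKP1, PKP3, DSP, PERP, DSG3 and DSC3 overlap no other gene. DSC2 shares 935 bases with DSCAS and DSG2 shares 6863 bases with DSG2-AS1, both on the opposite strand. PKP2 holds a pseudogene on the opposite strand (AC087588.1, 316 bases) and a short transcript on its own strand (AC087588.2, 426 bases). The libraries kept the strand, but whether the deposited values use it is not stated, so reads of these genes cannot be told apart here. Of the 31-base words in the longest coding transcript, none of JUP, PKP1, PKP3 and DSP also occurs in another gene. The share was 1.65% for DSC2, 2.76% for DSG2, 3.49% for DSC3, 5.17% for DSG3 and 5.21% for PERP. DSC2 and DSC3 share 50 such words with each other. PKP2 stands out with 16.2%, of which 610 words of 4211 occur in AC005840.3, a processed pseudogene, and the value of PKP2 is uncertain to that extent.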

How the data were processed

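Total RNA of the 2 PCa lines was sequenced paired-end from strand-keeping libraries, 1 per line. The submitters' processing notes name CASAVA, FastQC 0.11.9, Trimmomatic 0.38, Salmon 1.2.0 and the build GRCh38. The authors deposited TPM per locus, with the mean and standard error of both lines. Those 2 columns served only to restore the decimal mark. The deposited values are not plain TPM numbers, as the design had assumed, because numbers that reach 1 TPM and carry 3 or more decimals lack the mark. Each position with 1 to 3 digits before it was tried and kept where mean and standard error came out as deposited, which left 1 position in 16284 of 22791 rows and several in 6507. On 5000 simulated rows, all 3903 with 1 position had the true one, and the positions of all 5000 included it. The simulated rows lost their marks by the rule that the restoration assumes and held no zeros. They check the procedure and cannot show that the deposited numbers follow that rule.

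Each of 22704 loci was used once, and loci of a symbol were summed to 21382 genes, 11624 of them expressed, with a mean over both lines of 1 TPM or more. The ratio was log2 of RC77 T/E over MDA PCa 2b on TPM + 1. No test was run. TPM keeps no read counts, so depth and precision are unknown. The 10 genes and the lists were chosen with earlier results of these data known. Named were all 10 genes, genes of the lists and genes overlapping them; AC005840.3 was named after its shared words were seen. Of the 8 adherens junction genes listed, 7 were analysed here. Some further list genes are not reported here, and no count or median includes them. Positions are those of the deposited table, strands, exons and overlaps those of GENCODE release 29. Alternatives were another pseudocount, centring on the median of all genes, the highest open marks, the largest locus, other thresholds and folds, and all genes above 0. Python 3.11.15, numpy 2.4.6 and matplotlib 3.10.9 were used.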

Additional observations from a re-analysis of the deposited data

How the results depend on the processing

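The count of 8 desmosome genes higher in RC77 T/E by 2-fold or more was also found with a pseudocount of 0.1 TPM, with centring on the median gene, with open marks at their highest position and with the largest locus. None of these settings could lower the count, so its agreement is no check. Each gene has a single locus, the median of all genes lies below 0, and a smaller pseudocount or higher marks only widen a ratio. The count was 6 at 4-fold and, in a setting chosen after seeing the data, 7 without DSG3, the gene listed at 0. Their median log2 ratio ran from 2.55 to 2.90 over those settings and was 2.21 without DSG3. A value was counted as moved past 1.5 times: 12 values moved, 77 did not, and none changed direction. The 77 include every value at the largest locus, which repeats the main value because each gene has a single locus. Another pseudocount, a higher mark or the largest locus cannot turn the sign of a gene's log2 ratio. For these settings the unchanged direction is therefore no check. With a threshold of 5 TPM, 4 desmosome genes in MDA PCa 2b reached it at the lowest marks (6 at the highest, also chosen after seeing the data). No share of all genes was taken at that threshold, so these counts have nothing to stand beside. With open marks at the highest position, the share of DSG3 in RC77 T/E was 85.8%, that of PKP1 was 5.82% there and 5.43% in MDA PCa 2b, and those of PKP2 and PKP3 in RC77 T/E were 16.9% and 77.3%. A pseudocount of 0.1 TPM moved the log2 ratios of DSG3, DSC2 and DSC3 to 6.19, 5.44 and 8.71. Over all genes above 0, 14.4% were higher in RC77 T/E by 2-fold or more and 14.5% were lower. No paired analysis was possible because there is only a single library of either line. Without read counts, no limit of detection is known for values near 0.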
